A study of Homo sapiens with 9 samples.

Results

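The genes of the Mediator and TAF families were read for H3K4me3, the histone mark of active promoters, in HEL cells with and without the m6A mRNA methyltransferase subunits. All protein-coding genes were taken whose hg19 GENCODE symbol is MED or TAF followed by digits and an optional letter. This gave 54 of 20162 genes, 30 of them MED and 24 TAF genes. The 12 TAF11L genes have a longer symbol and were left out. HEL is a human erythroleukemia line with erythroid and megakaryocytic features. The groups were cells transduced with a non-targeting CRISPR control (NTC, 3 libraries) and METTL3-KO, METTL14-KO and WTAP-KO cells (2 libraries each), all grown as one line in the same medium. The knockouts were made by lentiviral guide RNA and Cas9 (lentiCRISPRv2), and nothing in the sources states that the cells profiled were clones. CUT&RUN cuts chromatin with MNase tethered to the antibody, and yeast spike-in DNA was used to calibrate the signal.

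Mediator is the large coactivator that bridges enhancer-bound activators and RNA polymerase II. It is built of head, middle and tail modules on the MED14 scaffold, with a detachable kinase module that holds MED12 and MED13. TAFs are the TBP-associated factors: most belong to TFIID, which recognises core promoters, some are shared with or replaced by paralogues in the SAGA coactivator, and TAF1A to TAF1D serve RNA polymerase I in the SL1 complex. Most genes of these families are housekeeping genes with CpG-rich promoters, and H3K4me3 is normally strongest just downstream of such starts.

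Each library is a list of peaks, and each gene was given its largest peak within 1 kb of any annotated start, in calibrated signal (the coverage summed over the peak). A gene without such a peak is written as listed at 0, which does not show that the mark was absent. The NTC lists held 21724 to 21941 peaks, the METTL3-KO lists 9205 and 9369, the METTL14-KO lists 5286 and 3169 and the WTAP-KO lists 3160 and 3673. Every list holds only peaks 150 to 2000 bp wide, so a wider domain would be missing. No read totals are given, so depth is unknown. The labels do not say whether replicates came from separate cultures, so p-values measure only the spread between these libraries. Of the genes that mark HEL cells, TAL1, GFI1B, LMO2, EPOR, KLF1 and GATA1 had a promoter peak in all 3 NTC libraries, and NFE2 and ITGA2B in some of them. Of the genes of other cell types, ALB, INS, MYOD1, CD3E, CD3D and KRT5 had none, and PAX5 and COL1A1 had one in all 3. A promoter mark does not check a guide cut in the gene body. The METTL3 promoter itself held 6515, 9224 and 10067 in NTC, 1095 and 915 in METTL3-KO, 400 and 0 in METTL14-KO and 0 in both WTAP-KO libraries.

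Fewer Mediator and TAF genes carried a promoter peak in METTL14-KO and WTAP-KO cells than in NTC, and nearly as many did in METTL3-KO. A promoter peak was present for 44, 41 and 39 of the 54 genes in NTC (mean 41.3 ± 2.52, SD, n = 3), for 39 and 37 in METTL3-KO, for 26 and 17 in METTL14-KO and for 16 and 20 in WTAP-KO. METTL3-KO overlapped the NTC range, while both METTL14-KO and both WTAP-KO libraries lay below it. The means were 91.9%, 52.0% and 43.5% of NTC, where all protein-coding genes stood at 71.8%, 36.2% and 25.6%. These shares are a description without a test. They do not measure retention, since the KO counts include genes with no NTC peak (in both METTL3-KO libraries MED12L, TAF1B, TAF9 and TAF15). With peaks at or above the median NTC peak signal alone, the shares of Mediator and TAF genes were 52.8%, 23.6% and 15.3% of NTC. The 30 MED genes gave 27, 24 and 23 in NTC, 22 and 22 in METTL3-KO, 16 and 10 in METTL14-KO and 9 and 11 in WTAP-KO. The 24 TAF genes gave 17, 17 and 16, then 17 and 15, 10 and 7, and 7 and 9. The replicates of METTL14-KO stood apart from each other in both families. In bulk cells, fewer marked cells and less mark per cell cannot be told apart.

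**Figure D1:**
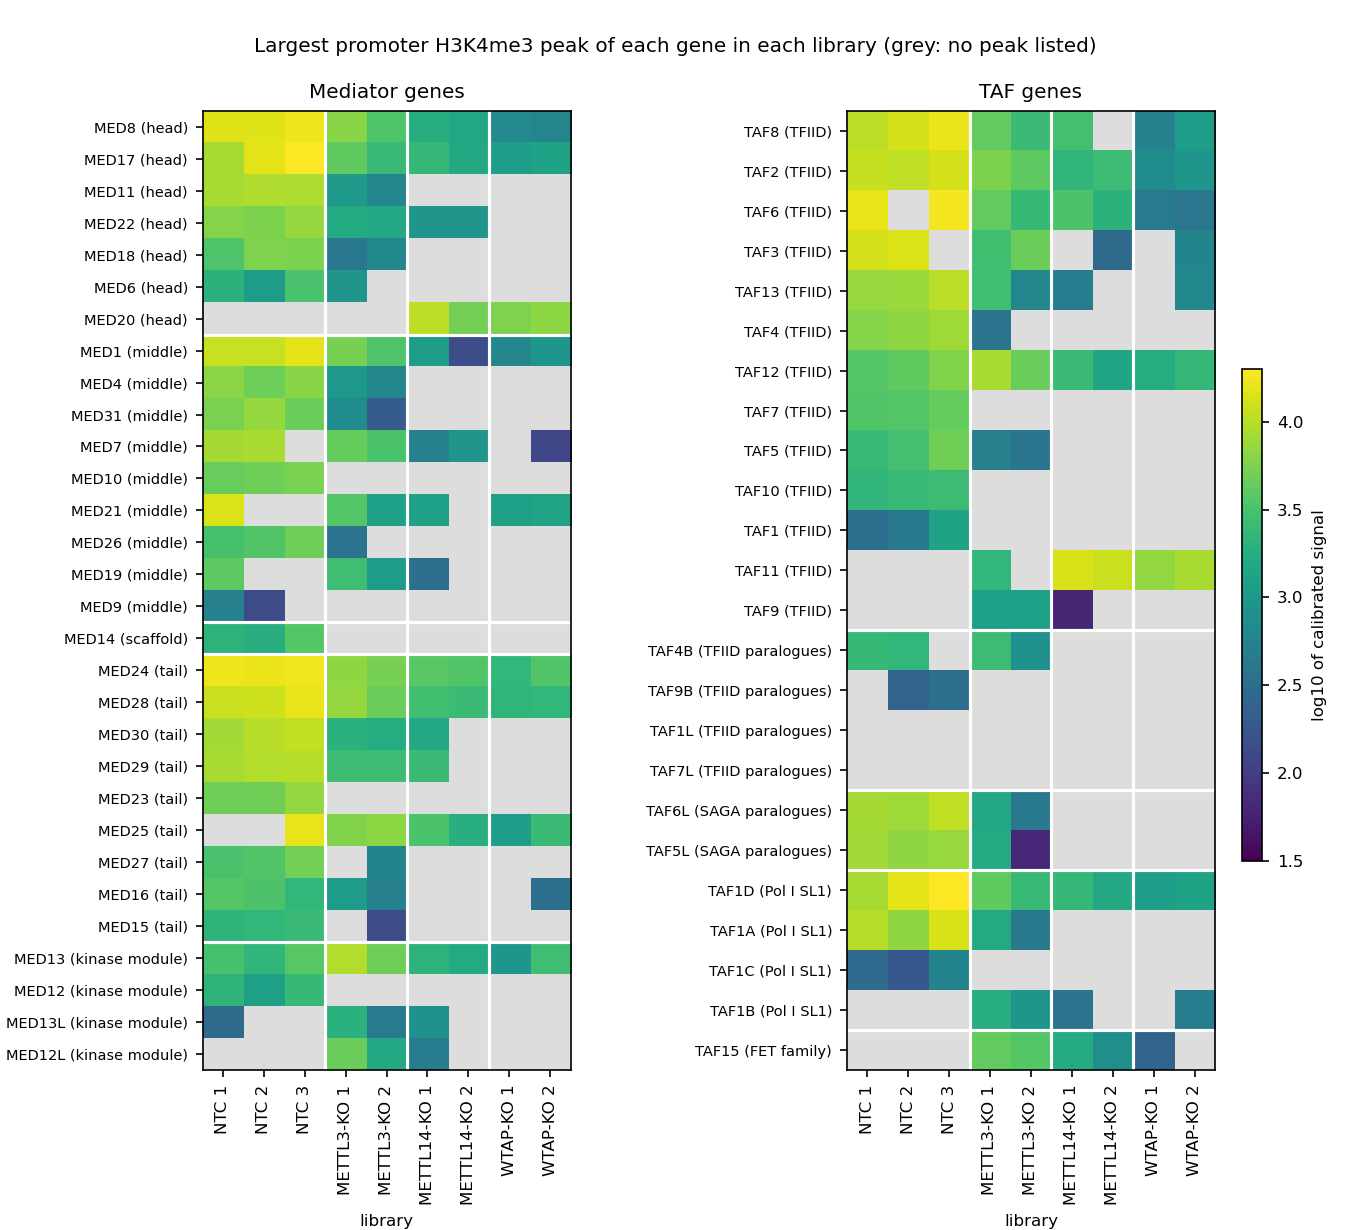
Colour gives the log10 calibrated signal of the largest promoter peak of each of the 54 genes (rows, grouped by role and ordered by mean NTC signal) in each of the 9 libraries (columns), and grey marks no listed peak. Grey spreads from left to right, while MED20 and TAF11 are coloured in METTL14-KO and WTAP-KO and grey in NTC.

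Since genes with a high signal in NTC more often kept a peak, Mediator and TAF genes were set beside all genes of like NTC signal. A peak in all 3 NTC libraries was found at 36 of the 54 genes, and at 8495 genes in all. Of the 36, 28 (77.8%) had a peak in at least 1 METTL3-KO library, against 53.7% of the 8495. The shares among genes in the same bin, of 10 equal bins of NTC signal, add up to 21.6 genes, so that 28 stood above. For METTL14-KO the count was 14 (38.9%), against 26.7% of all and 11.4 from the bins, and for WTAP-KO 12 (33.3%), against 15.1% and 6.98. A peak in all 6 KO libraries was found at 9 of the 36 (25%), against 7.83% and 3.85. No test was made of these excesses, and the 9 include MED17 and TAF1D, which were read at 1 shared start region in nearly all libraries. When only KO peaks were counted that overlap an NTC promoter peak of the same gene, a choice made after seeing the data, the counts became 26, 13 and 10, beside 20.7, 10.5 and 6.14 from the bins. The number with such a peak in all 6 KO libraries became 7, beside 3.27. The 36 genes had a median of 7.5 annotated starts and all 8495 had 7, but genes were not matched on this number. With the start of the gene record alone, 35 of the 54 genes had a peak in all 3 NTC libraries. Of these 35, 25 kept a peak in METTL3-KO, beside 19.6 from the bins. METTL14-KO gave 12 beside 9.72, WTAP-KO gave 10 beside 5.42, and all 6 KO libraries together gave 7 beside 2.79. Whether the number of starts bears on the excesses was not tested.

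**Figure D2:**
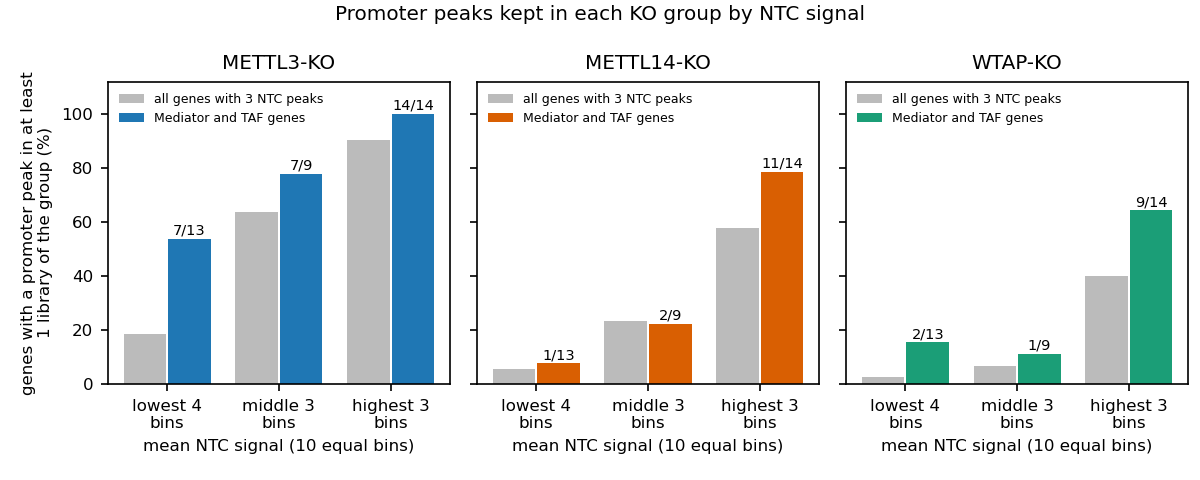
Bars give the percent of genes with a peak in all 3 NTC libraries that had a promoter peak in at least 1 library of each KO group, split by mean NTC signal, for all genes (grey) and Mediator and TAF genes (colour, with counts). Among the 14 Mediator and TAF genes of the highest 3 bins, 14 kept a peak in METTL3-KO, 11 in METTL14-KO and 9 in WTAP-KO, beside 90.5%, 57.8% and 40.0% of all genes there.

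Where a gene had a peak in all 3 NTC libraries and in both libraries of a KO group, its mean KO signal was below its NTC mean, except at MED13 and TAF12 in METTL3-KO. In METTL3-KO the median over 23 such genes was 23.2% of the NTC mean, from 8.01% at MED31 to 240% at MED13, and over 3386 genes it was 16.2%. In METTL14-KO it was 17.4% over 10 genes (11.1% over all), and in WTAP-KO 8.67% over 10 (7.92% over all). The lowest values were MED1 in METTL14-KO at 5.00% and MED8 in WTAP-KO at 4.12%.

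The promoter signal was tested with limma on the log2 scale (pseudocount 30.1) over 12037 genes with a peak in at least 2 libraries, 52 of the 54 among them. Against NTC, 27 of 52 were lower in METTL3-KO, 35 in METTL14-KO and 34 in WTAP-KO at an adjusted p under 0.05. Over all genes tested, 60.9%, 68.8% and 69.7% were lower, so the Mediator and TAF shares were near or under the background and are no result about them. Higher calls numbered 4, 3 and 2, beside a background of 14%, 8.38% and 6.81%. For the mean of the KO groups, 36 were lower (background 73%) and 6 higher (background 14.3%). With each library centred on the genes that had a peak in all 9 libraries, the split was 23 lower (44.2%, against 63.4% of all genes) and 10 higher (19.2%, against 14.5%), and the median change of all genes moved from -5.30 to -4.86. The lower count in METTL14-KO was then 23 (55.1% of all genes), as it was with values divided by the step of each library (60.7%). In 34 of 52 genes every KO library lay below every NTC library (background 68.3%). The median log2 change was -2.07 in METTL3-KO, -4.25 in METTL14-KO and -4.30 in WTAP-KO, against -3.48, -5.57 and -5.97 over all genes tested. All comparisons with NTC share the same 3 control libraries.

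The modules are described by their counts, which were not tested against each other or against the background of 73% lower and 14.3% higher. The head was lower in 6 of 7 genes for the mean of the KO groups, with MED20 higher. The middle was lower in 6 of 9, the scaffold MED14 in 1 of 1 and the tail in 8 of 9, the remaining gene being MED25. Of the 4 genes of the kinase module 1 was lower (MED12) and 1 higher (MED12L), and MED13 and MED13L were not called. Of the 13 TFIID genes 8 were lower and 2 higher (TAF9 and TAF11), and of the 4 SL1 genes 3 were lower and TAF1B higher. The lower call of TAF8, a TFIID subunit, was lost without any 1 library outside METTL14-KO (limma adjusted p = 0.0587 to 0.103). Both SAGA paralogues, TAF5L and TAF6L, were lower, and TAF15, an RNA-binding protein of the FET family, was higher.

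A promoter peak in all 9 libraries was found at MED1, MED8, MED13, MED17, MED24, MED28, TAF1D, TAF2 and TAF12. When each library was centred on all genes with a peak in all 9, the mean KO change turned at MED17, MED24, MED28, TAF1D and TAF2 (0.064 to 0.83 on the log2 scale). The mean KO changes of TAF12 and MED13, not called before, became higher calls (2.22 and 2.75). Lower values among these genes thus hold for the calibrated signal. MED24, a tail subunit, had the highest NTC mean among the 36 genes, 16860 ± 428 (SD, n = 3). It held 16739, 16506 and 17336 in NTC, 6921 and 5296 in METTL3-KO, 3838 and 3423 in METTL14-KO and 2252 and 3441 in WTAP-KO. No KO library overlapped NTC, and the group means stood at 36.2%, 21.5% and 16.9% of NTC (mean log2 change -2.09, SE 0.17, limma adjusted p = 3.55e-05). MED28, counted here with the tail, held 11976, 12311 and 15717, then 7175 and 4698, 2840 and 2536, and 2127 and 2266. Again all KO values lay under the lowest NTC value, and the fit gave -2.02 (SE 0.19, limma adjusted p = 6.52e-05).

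MED1, the middle subunit that contacts nuclear receptors and GATA1, held 11625, 11624 and 15159 in NTC and 5335 and 3344 in METTL3-KO. It fell to 1133 and 146 in METTL14-KO and to 633 and 935 in WTAP-KO. The METTL14-KO pair was far apart, and the METTL3-KO change of -1.58 (SE 0.78, limma adjusted p = 0.109) did not pass the test, while METTL14-KO (-4.81, SE 0.78, adjusted p = 0.00125) and WTAP-KO (-3.99, SE 0.78, adjusted p = 0.00292) did. MED8, a head subunit, held 14402, 14725 and 17007 in NTC, 6422 and 3406 in METTL3-KO, 1737 and 1527 in METTL14-KO and 667 and 600 in WTAP-KO. Its 4 groups did not overlap, and WTAP-KO stood lowest, at 4.12% of NTC. TAF2, the TFIID subunit that binds the initiator, held 11208, 10652 and 13013, then 5599 and 4070, 2219 and 2625, and 726 and 930. It too had 4 separate groups, with a mean log2 change of -2.43 (SE 0.20, limma adjusted p = 2.86e-05).

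MED17, the central head subunit, and TAF1D face away from each other on chromosome 11 with starts 10 bp apart, so that a peak there cannot be given to either gene. Both were read at 8521, 15217 and 19488 in NTC, 2291 and 1559 in METTL14-KO and 1153 and 1345 in WTAP-KO. In METTL3-KO MED17 was read at 4175 and 2437 and TAF1D at 4175 and 2513. All these KO values lay under NTC, and at this start region the pair counts as 1 observation. TAF1D also has inner starts, its canonical one far inside the gene record, and there a peak was listed in every KO library and in no NTC library. That peak held 3912 and 2513 in METTL3-KO, 822 and 729 in METTL14-KO and 615 and 480 in WTAP-KO, and was the largest of TAF1D only in METTL3-KO library 2. Whether a wide NTC domain went unlisted there was not tested. Other genes share their start region with a neighbour, among them MED22 with RPL7A, TAF6 with CNPY4 and TAF8 with CCND3.

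**Figure D3:**
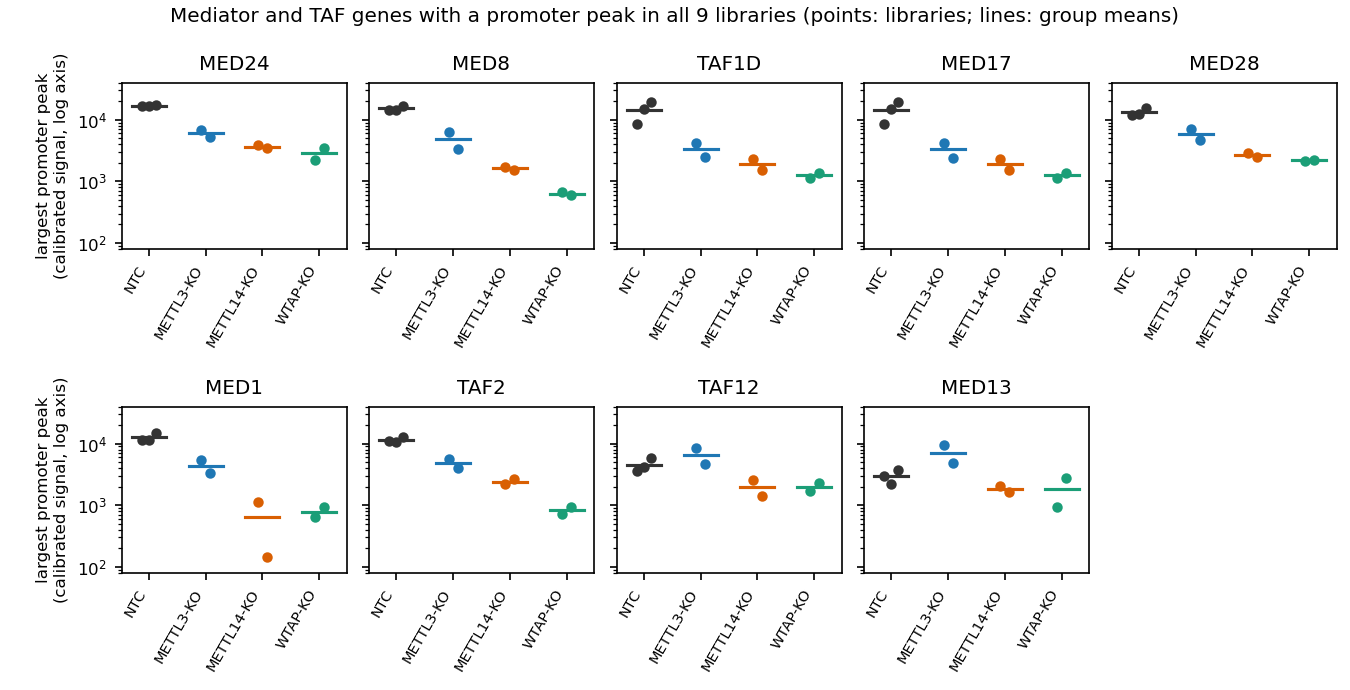
Points give the largest promoter peak (calibrated signal, log axis) in each library and lines the group means, for the 9 genes with a peak in all 9 libraries. In 7 of the 9 every KO point lies below NTC on this scale, a direction that turned at 5 of them under centring. Both METTL3-KO points of MED13 lie above its NTC points, and at TAF12 only the point of METTL3-KO library 1 does.

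MED13 and TAF12 owe their unbroken row to different peaks. MED13, of the kinase module, held 3019, 2182 and 3743 in NTC and 9487 and 4817 in METTL3-KO, the latter above all NTC values (log2 change 1.21, SE 0.56, limma adjusted p = 0.093, not called). For the mean of the KO groups its change of -0.09 (SE 0.44, adjusted p = 0.847) was not called, and with centring it was a higher call (2.75, SE 0.28, adjusted p = 0.000149). METTL14-KO held 2049 and 1636 and WTAP-KO 939 and 2793. The NTC peaks lay upstream of the start of the gene record, while the largest peak of every KO library lay downstream of it, inside a gap of 3044 to 3285 bp between listed NTC peaks and 611 to 1336 bp from the nearer upstream one. Smaller peaks that overlap those of NTC were listed in 3 KO libraries. A wide NTC domain at that place would not be listed, and whether there was one was not tested. TAF12, a histone-fold subunit of TFIID and SAGA, held 3597, 4164 and 5848 in NTC, 8534 and 4594 in METTL3-KO, 2544 and 1391 in METTL14-KO and 1702 and 2302 in WTAP-KO. None of its KO peaks overlapped an NTC peak, since they lay at an inner start, the canonical one, and the NTC peaks at the outer one. A wide NTC domain at the inner start would not be listed, and whether there was one was not tested. With all starts, TAF12 was called lower in METTL14-KO and in WTAP-KO, from peaks at these different starts. With the start of the gene record alone, TAF12 was listed at 0 in every KO library. The mean change of -0.63 (SE 0.33, limma adjusted p = 0.119), which was not called, then became a lower call (adjusted p = 5.98e-08). With centring it was instead a higher call (2.22, SE 0.13, adjusted p = 8.12e-06), so the direction at TAF12 depends on the choice.

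**Figure D4:**
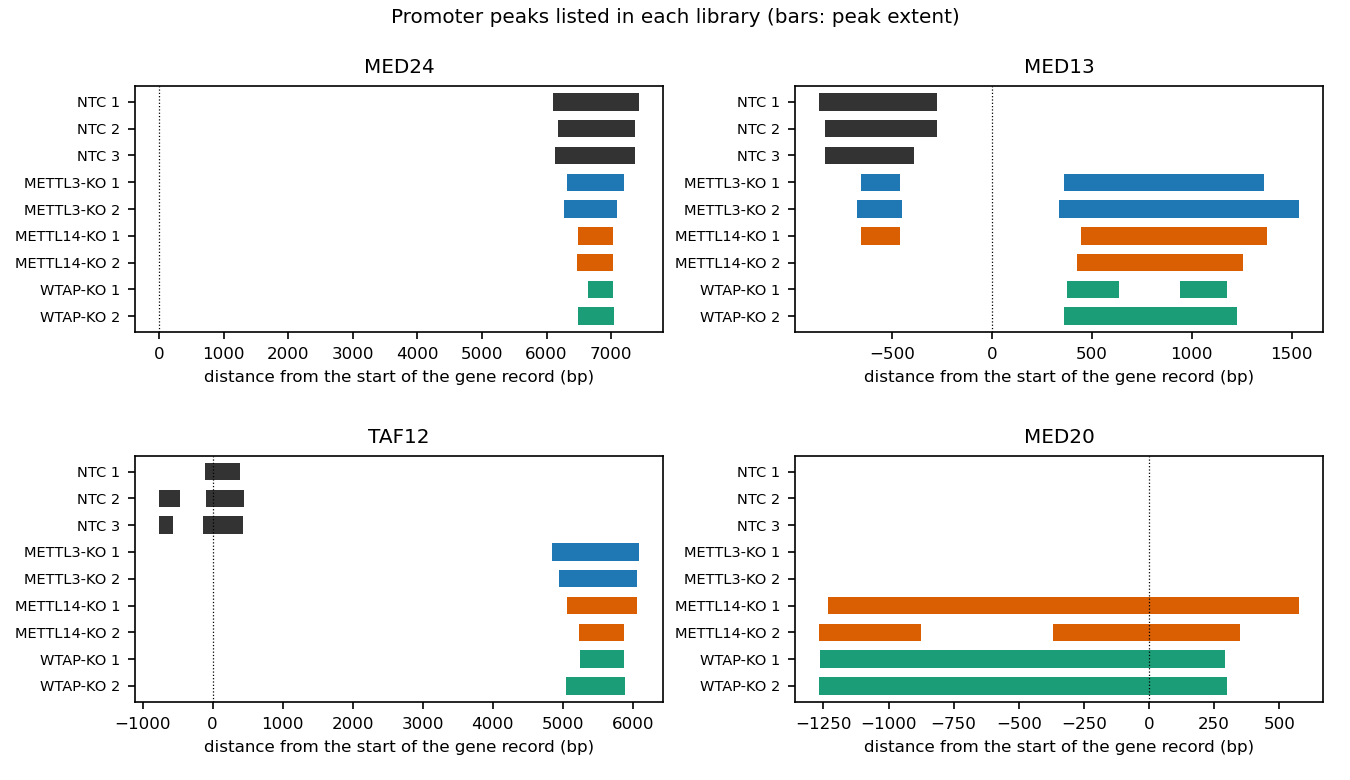
Bars show the extent of every promoter peak of MED24, MED13, TAF12 and MED20 in each library against the distance from the start of the gene record in bp, downstream to the right. The peaks of MED24 lie at 1 inner start in all libraries, the large KO peaks of MED13 and all KO peaks of TAF12 lie apart from those of NTC, and MED20 has peaks in METTL14-KO and WTAP-KO alone.

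Among the 36 genes, 8 were marked in every NTC library and lost all KO peaks: MED10, MED12, MED14, MED23, TAF1, TAF1C, TAF7 and TAF10. MED23, a tail subunit, held 4841, 4952 and 7022 in NTC. MED10, a middle subunit, held 4497, 4833 and 5473. TAF7, a TFIID subunit that binds TAF1, held 3493, 3545 and 4348. MED14, the scaffold, held 2061, 1785 and 3610, and TAF10, a histone-fold subunit of TFIID and SAGA, 2211, 2483 and 2612. All 5 were listed at 0 in all 6 KO libraries and were called lower in each comparison with NTC, with no fold given against 0. All 5 were picked by their NTC peaks and their lack of KO peaks. The lower calls were thus set in advance and give no support to a loss. Their NTC signals were moderate: each lay under the lowest NTC value of the 7 among the 36 that kept an overlapping peak in all 6 KO libraries. Of all 8495 genes, 3893 had no KO peak.

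The chromosomes of these genes are given as a description, chosen after the values were known. MED12, MED14 and TAF1 lie on the X chromosome, and so do TAF9B and TAF7L. None of these 5 genes had a peak in any KO library. Of 288 X-linked genes with a peak in all 3 NTC libraries, 9 had one in METTL3-KO and 0 in METTL14-KO or WTAP-KO. Genes on the other chromosomes kept a peak in some KO library in 56.0% of cases, and in 16.4% in the NTC signal bins of the X-linked genes, whose median NTC signal was 1427 against 5392. Of the genes with a peak in all 3 NTC libraries, both on chromosome 5 (MED10 and TAF7) and TAF1C on chromosome 16 also lost all peaks, where 44.5% and 37.0% of genes kept one. The other losses lay where more genes kept a peak, TAF10 on chromosome 11 (59.6%) and MED23 on chromosome 6 (62.3%), and on chromosome 9 both MED22 and MED27 kept one, beside 42.9% of genes. On chromosome 17 all 5 such genes (MED1, MED11, MED13, MED24 and MED31) kept one, beside 61.4% of genes.

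Promoter sequences are shown for 2 genes with a high NTC signal that kept a peak in all 9 libraries (MED24 and MED1) and for 2 that kept none in KO cells (MED10 and TAF7), so that their base make-up can be seen. Each runs 5′ to 3′ from 250 bases before to the first 30 bases of the canonical transcript in GENCODE for hg19, lies inside the listed peak of all 3 NTC libraries and meets no other protein-coding gene. Capitals mark the letters searched on both strands.
MED24, chr17:38210632-38210911, minus strand: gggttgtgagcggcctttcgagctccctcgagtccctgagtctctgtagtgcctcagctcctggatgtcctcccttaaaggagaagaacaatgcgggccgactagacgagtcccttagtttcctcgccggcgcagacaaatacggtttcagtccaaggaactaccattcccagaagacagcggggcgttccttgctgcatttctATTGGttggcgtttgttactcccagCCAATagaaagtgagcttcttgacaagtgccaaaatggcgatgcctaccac
MED1, chr17:37607487-37607766, minus strand: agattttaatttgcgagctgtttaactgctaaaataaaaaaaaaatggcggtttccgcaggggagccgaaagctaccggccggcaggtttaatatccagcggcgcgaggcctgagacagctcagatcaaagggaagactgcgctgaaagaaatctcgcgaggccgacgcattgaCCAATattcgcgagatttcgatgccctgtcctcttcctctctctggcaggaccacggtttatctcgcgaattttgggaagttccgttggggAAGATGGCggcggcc
MED10, chr5:6378631-6378910, minus strand: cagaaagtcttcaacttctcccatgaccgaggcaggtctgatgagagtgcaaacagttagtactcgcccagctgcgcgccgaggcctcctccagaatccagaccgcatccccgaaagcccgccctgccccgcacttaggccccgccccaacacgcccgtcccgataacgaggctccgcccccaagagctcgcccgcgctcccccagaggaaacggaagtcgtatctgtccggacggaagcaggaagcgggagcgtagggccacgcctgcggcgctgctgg
TAF7, chr5:140700322-140700601, minus strand: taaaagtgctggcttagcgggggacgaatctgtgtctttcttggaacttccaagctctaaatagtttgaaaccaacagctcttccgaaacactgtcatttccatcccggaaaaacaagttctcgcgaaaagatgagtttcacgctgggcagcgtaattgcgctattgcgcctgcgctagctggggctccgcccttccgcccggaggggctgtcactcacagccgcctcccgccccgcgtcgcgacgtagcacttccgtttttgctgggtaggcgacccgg
The MED24 window holds CCAAT (NF-Y) on both strands, at -46 and -21 from the start. MED1 holds CCAAT at -76 and AAGATGGC (YY1) just after its start. MED10 and TAF7 hold none of the letters searched, which also included CCGGAAG (ETS family), GCATGCGC (NRF1) and TATAAA.

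Over windows of 300 bases (250 before and 50 after the start), CCGGAAG was found in 20 of the 54 Mediator and TAF promoters (37.0%), against 14.0% of all 20162. It was in 13 of the 28 with 3 NTC peaks and a KO peak (46.4%) and in 2 of the 8 without one, where all genes of these classes gave 24.0% and 16.0%. AAGATGGC was in 8 of 54 (14.8%), against 4.01% of all: MED1, MED16, MED18, MED25, MED29, TAF5, TAF6 and TAF8. GCATGCGC was in 1 (MED18), TATAAA in 5 (9.26%, against 9.80%) and CCAAT in 22 (40.7%, against 35.9%). Median GC content was 59.5% over the 54 promoters and 63.3% over all, and the CpG count was 24 and 23. The 8 genes without a KO peak had a median of 26.5 CpGs and the 28 with one 24, and all genes of these classes 29 and 27. A match is a run of letters, not a bound site.

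A further 10 genes had a promoter peak in 1 or 2 NTC libraries. For MED21, MED25, MED7, TAF3 and TAF6 the NTC peaks present were 1648 to 1910 bp wide, close to the 2000 bp limit of the lists. MED25, the tail subunit that binds activators, held 15894 in NTC library 3 (1684 bp wide) and was listed at 0 in the others, but held 5933 and 6713 in METTL3-KO, 3192 and 1849 in METTL14-KO and 1184 and 2575 in WTAP-KO. TAF6, a histone-fold core subunit of TFIID, held 16212 and 17641 in NTC libraries 1 and 3, 0 in library 2, 4218 and 2367 in METTL3-KO, 3267 and 1991 in METTL14-KO and 438 and 398 in WTAP-KO. All its KO peaks overlap the listed NTC peaks. Neither was called (MED25 3.64, SE 2.13, limma adjusted p = 0.15, and TAF6 -0.41, SE 2.14, adjusted p = 0.865), since a missing entry sets the NTC spread. Without NTC library 2, where it was listed at 0, TAF6 was lower by -3.45 (SE 0.33, limma adjusted p = 0.000263). Without NTC library 3, which held its only NTC peak, MED25 was called higher, with NTC listed at 0 (limma adjusted p = 5.5e-05). Each call depends on which library was left out, so it gives no support to either direction.

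MED21, a middle subunit, held 14022 in NTC library 1 alone, 3578 and 1255 in METTL3-KO, 1276 and 0 in METTL14-KO and 1235 and 1360 in WTAP-KO. MED7, its partner, held 8319, 8909 and 0, then 4366 and 3248, 532 and 908, and 0 and 123. TAF3, the TFIID subunit whose PHD finger reads H3K4me3, held 13048, 14217 and 0, then 2846 and 4653, 0 and 291, and 0 and 582. In each of the 3 the KO values lay under the NTC values that were listed. The peaks of MED9, MED13L, MED19, TAF4B and TAF9B were 156 to 796 bp wide. MED19 held 4060, 0 and 0 in NTC and 2731 and 1106 in METTL3-KO. MED9 (521, 141 and 0) and TAF9B (0, 249 and 321) had no KO peak. Without NTC library 3, in which they were listed at 0, MED7, TAF3 and TAF4B were called lower (limma adjusted p = 0.00364, 0.0203 and 0.000356). These calls too depend on which library was left out and give no support to a loss. The lower calls of MED9 and TAF9B were lost without any 1 of the KO libraries (limma adjusted p = 0.0679 to 0.117).

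Peaks in KO cells without any NTC peak were found at 6 of the 54 genes (11.1%), against 9.47% of all genes, a share near the background. They made up all 6 higher calls: MED12L, MED20, TAF1B, TAF9, TAF11 and TAF15. With NTC listed at 0, the size of a fitted change depends on the pseudocount and is not given. A call against NTC could then only be higher, so these calls give no support to a gain. MED20, a head subunit that pairs with MED18, held 10523 and 5243 in METTL14-KO and 5743 and 6652 in WTAP-KO and was listed at 0 in the 5 NTC and METTL3-KO libraries. TAF11, a histone-fold partner of TAF13, held 13665 and 11894 in METTL14-KO and 7031 and 8852 in WTAP-KO, with 2284 and 0 in METTL3-KO and 0 in NTC. The peaks were wide: 720 to 1810 bp at MED20 and 1427 to 1812 bp at TAF11 in METTL14-KO and WTAP-KO. The METTL3-KO peak at TAF11 was 394 bp wide and lay beside them. Both genes lie on chromosome 6, MED20 next to BYSL and TAF11 next to ANKS1A, and both were called lower in METTL3-KO than in the other KO groups (limma adjusted p of 2.5e-05 at MED20 and 0.0495 at TAF11). Both passed the filter through METTL14-KO and WTAP-KO, where they were high, so these lower calls give no support to a difference.

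TAF15 held 4215 and 3677 in METTL3-KO, 1683 and 786 in METTL14-KO and 249 and 0 in WTAP-KO. MED12L, the paralogue of MED12, held 4567 and 1559 in METTL3-KO, 474 and 0 in METTL14-KO and 0 in WTAP-KO. TAF9, a histone-fold partner of TAF6 whose start is shared with AK6, held 1208 and 1258 in METTL3-KO and 62.9 and 0 in METTL14-KO. TAF1B, of SL1, held 1758 and 938, then 377 and 0, and 0 and 484. These 4 stood highest in METTL3-KO. Some calls for the mean of the KO groups were lost when 1 library was left out. That of MED12L was lost without any 1 NTC library or METTL3-KO library 1 (limma adjusted p = 0.0564 to 0.0618). That of TAF1B was lost without any 1 NTC library, either METTL3-KO library or METTL14-KO library 1 (limma adjusted p = 0.0598 to 0.0962). Whether wide NTC domains went unlisted at the 6 genes was not tested.

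**Figure D5:**
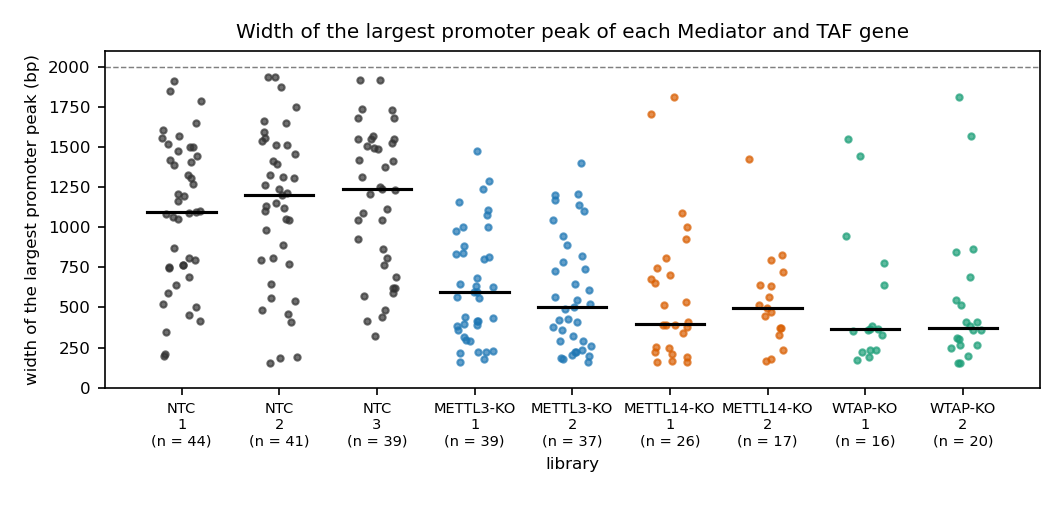
Points give the width in bp of the largest promoter peak of each Mediator and TAF gene in each library, black lines the median, and the dashed line the 2000 bp limit of the lists. The medians were 1098.5 to 1241 bp in NTC and 364.5 to 595 bp in the KO libraries, and the widest NTC peaks reach 1910 to 1939 bp.

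The largest KO promoter peaks of Mediator and TAF genes had smaller median widths than those of NTC, and no test was made. Over all genes the medians were likewise 1086 to 1119 bp in NTC and 338 to 553 bp in the KO libraries. Of the 155 largest KO promoter peaks, 83 overlapped a peak in all 3 NTC libraries (53.5%), 29 in some of them and 43 in none (27.7%). Over the 25558 largest KO promoter peaks of all genes the shares were 43.0% and 41.8%. Those without overlap belonged to MED12L, MED13, MED13L, MED15, MED20, TAF1B, TAF4B, TAF9, TAF11, TAF12 and TAF15 and, in 1 METTL3-KO library, TAF1D.

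METTL3-KO was compared directly with METTL14-KO and WTAP-KO, the only comparison without NTC. Here 20 of 52 genes were higher in METTL3-KO (38.5%, background 29.5%) and 2 lower (background 0.582%, MED20 and TAF11). The higher count was 12 of 52 after centring (17.1% of all genes), 10 of 52 with values divided by the step (16.7%) and 6 of 42 with peaks at or above the median NTC peak signal (12.4%). The background of 29.5% includes genes listed at 0 in every KO library. With the KO libraries fitted alone, 23 of 37 were higher (62.2%, against 60.2% of all genes). Among genes with a peak in at least 4 libraries, 21 of 40 were higher (52.5%, against 51.8%). There the share was near the background, so the higher share is no result about these genes. The median log2 difference was 2.17, against 1.71 over all genes tested. The head gave 4 higher calls, the middle 3, the tail 3, the kinase module 2 and TFIID 4. MED11, a head subunit, held 8665, 9354 and 8971 in NTC and 1024 and 620 in METTL3-KO and was listed at 0 in METTL14-KO and WTAP-KO. MED4, a middle subunit, held 6523, 4830 and 6404, then 995 and 607, and 0 in the other 4. TAF1A held 9976, 6897 and 13533, then 1627 and 424, and 0 in the other 4. At each of the 3 the peak remained in both METTL3-KO libraries and in none of the other KO libraries. Of the genes with a peak in every library, MED8 (2.17, SE 0.30, limma adjusted p = 0.00219), TAF2 (1.74, SE 0.24, adjusted p = 0.00225), MED28 (1.25, SE 0.23, adjusted p = 0.00847) and MED24 (0.92, SE 0.21, adjusted p = 0.0208) were higher in METTL3-KO. So were MED1 (2.82, SE 0.74, limma adjusted p = 0.0325), MED13 (1.95, SE 0.53, adjusted p = 0.0371) and TAF12. At MED13 and TAF12 the largest KO peaks lay apart from those of NTC.

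Paralogues that can stand in for one another in these complexes did not all keep to the same pattern, though TAF5 and TAF5L did. MED12 was marked in NTC alone (2116, 1242 and 2364) and MED12L in KO cells alone. MED13 had a peak in every library, while MED13L held 295, 0 and 0 in NTC, 1957 and 452 in METTL3-KO and 834 and 0 in METTL14-KO. TAF1 held 329, 432 and 1301 in NTC and no KO peak, and TAF1L and TAF7L, retrocopy and germline paralogues of TAF1 and TAF7, had no peak in any library. TAF4 held 6262, 6758 and 8002 and then 379 in 1 METTL3-KO library, while TAF4B held 2360, 2234 and 0 in NTC, 2605 and 835 in METTL3-KO and 0 in the other 4. TAF5 (2518, 2873 and 4903 in NTC, 528 and 383 in METTL3-KO) and TAF5L (8071, 6803 and 7361, 1663 and 65.1) both ended there. TAF6L held 8318, 7904 and 10816, then 1554 and 430, and 0 in the other 4, where TAF6 kept a peak in all 6 KO libraries. No test was made between paralogues.

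Among 49 partner genes of the same machinery, 33 were marked throughout NTC, 15 of them without any KO peak, and 6 had a peak in all 9 libraries. Of all 20162 genes, 8495 were marked throughout NTC, 3893 of these without any KO peak, and 665 had a peak in all 9 libraries. Of the 46 partner genes tested, 32 were lower for the mean of the KO groups and 9 higher, beside 73% and 14.3% of all genes tested. The counts of the partner lists are a description without a test. Of the RNA polymerase II subunits 10 of 11 tested were lower and 0 higher, where POLR2A, the largest subunit, held 3093, 3516 and 4021 in NTC and 0 in every KO library. POLR2K held 31315, 29075 and 31842 in NTC, 12026 and 8984 in METTL3-KO, 4744 and 4265 in METTL14-KO and 3475 and 5527 in WTAP-KO. Of the general factors 11 of 17 were lower and 4 higher, and of the SAGA genes 10 of 13 were lower and 2 higher. In the TBP family TBP was listed at 0 in NTC and METTL3-KO and held 7940 and 6597 in METTL14-KO and 1594 and 1994 in WTAP-KO. Of the kinase module partners CCNC, the cyclin, held 12173, 10479 and 15625 in NTC and 2062 and 751 in METTL3-KO, and CDK8 was listed at 0 in NTC.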

How the data were processed

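9 CUT&RUN libraries against H3K4me3 were analysed (NTC n = 3, each KO n = 2). Per the labels and the study's methods, the authors aligned reads with Bowtie to hg19 and to sacCer3 (the yeast spike-in), removed duplicates with Picard and called peaks in each library separately. Versions are not given in the sources used here. The deposited lists give each peak's position and a spike-in calibrated signal, read as coverage summed over the peak. Values below 1000 came out as whole multiples of 1 step per library in 100% of cases, within 0.05 of a step. The step differed between libraries, while the lowest listed signal lay between 30.1 and 32.0 in all 9.

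Each gene of the GENCODE annotation lifted to hg19 received its largest peak within 1 kb of any start. limma 3.58.1 in R 4.3.3 (lmFit, contrasts.fit, eBayes with trend) was fitted on log2(signal + 30.1), the smallest promoter value, with all 9 libraries and 4 groups in 1 model. The 12037 genes with a peak in at least 2 libraries were tested, with Benjamini-Hochberg adjustment at 0.05. The fit was tested on simulated data with normal errors around the NTC means. Missing peaks were not simulated, so this does not check calls that rest on values listed at 0. The genes, lists and motifs were chosen with earlier results of these data known. Named genes were those with a peak in all 9 libraries, the highest NTC signals, those with NTC peaks only, KO peaks only, some or no NTC peaks, the higher calls, paralogue pairs and a fixed set. Others were named after their values were seen (MED4, MED11, MED15, MED16, MED18, MED29, MED31, TAF1A and partners). Replicate numbers did not pair the libraries: 12 same-number pairs gave r of -0.06 to 0.09. Alternatives are given in the closing section. No IgG control library was analysed here. Some marker genes, a neighbouring gene and a promoter sequence are not reported here.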

Additional observations from a re-analysis of the deposited data

Results flagged for a closer look

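The comparison of METTL3-KO with METTL14-KO and WTAP-KO was picked out because limma tested the difference between knockouts of one methyltransferase complex itself. METTL14-KO and WTAP-KO were not tested against each other. Among the Mediator and TAF genes tested, 20 of 52 were higher in METTL3-KO and 2 were lower, beside 29.5% and 0.582% of all genes. The higher count was 6 to 12 under the alternatives of scaling and of strong peaks alone. With the KO libraries fitted alone, 23 of 37 were higher (62.2%), near the 60.2% of all genes. The lower pair, MED20 and TAF11, had no NTC peak listed and passed the filter through METTL14-KO and WTAP-KO, where they were high.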

How the results depend on the processing

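Of the counts of called genes and shares of marked genes, 126 values under an alternative kept their direction and size class. With each library centred on the genes marked in all 9, 23 Mediator and TAF genes were lower in METTL14-KO, 23 for the mean of the KO groups, and 12 were higher in METTL3-KO than in the other KO groups. With values divided by the step of each library, the counts were 23 for METTL14-KO and 10 for METTL3-KO against the others. With peaks at or above the median NTC peak signal alone, 6 were higher in METTL3-KO than in the others, and the share of marked genes against NTC was 52.8% in METTL3-KO, 23.6% in METTL14-KO and 15.3% in WTAP-KO. With the start of the gene record alone it was 80.7% in METTL3-KO. For single genes, centring reversed the mean KO change of MED28 (0.83), MED24 (0.76), TAF2 (0.41), TAF1D (0.071) and MED17 (0.064). The mean KO changes of TAF12 (2.22) and MED13 (2.75), not called before, became higher calls. Over all alternatives run, 54 further values of single genes lost and 12 gained their call, and 25 values of 6 genes changed sign without a call in either fit. The cause was not tested, except that centring removes any shift shared by these genes. Leaving out 1 library at a time gave 27 to 31 lower in METTL3-KO, 33 to 36 in METTL14-KO, 32 to 37 in WTAP-KO, 33 to 37 for the mean, and 14 to 22 higher in METTL3-KO than in the others. The shares ranged from 89.4% to 95% in METTL3-KO, 41.1% to 62.9% in METTL14-KO and 38.7% to 48.4% in WTAP-KO. With the replicate number as a block, 28, 34, 36 and 36 were lower and 16 higher in METTL3-KO than in the others. With only genes marked in all 3 NTC libraries, an alternative chosen after seeing the data, 28, 35, 34 and 34 of 36 were lower and 0 higher than NTC. Of all 8495 such genes, 87.9%, 98.0%, 98.9% and 98.6% were lower. This filter picks genes by their NTC peaks, so lower calls were favoured in advance and these counts give no support to a loss. In the same fit 17 were higher in METTL3-KO than in the others, beside 29.02% of all 8495.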
